A study of Mus musculus with 6 samples.

Results

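The 9 genes Tcf3, Tcf4, Tcf12, Id1, Id2, Id3, Bhlhe40, Bhlhe41 and Hes1 encode E proteins, Id proteins and related helix-loop-helix (HLH) repressors. They were taken by gene symbol from the 23420 genes in the expression files, and all 9 were expressed well enough to be tested, among 11233 tested genes. The RNA came from bead-purified spleen B cells of 3 wild-type BALB/c mice aged 7 to 11 weeks. The cells were cultured for 4 hours with CpG ODN 1826 at 10 µg/mL, an oligonucleotide that activates Toll-like receptor 9 (TLR9), or were left unstimulated. Each group had 3 samples, of which replicates 1 and 2 came from female mice and replicate 3 from a male mouse. In the study this pair of groups served to find the transcripts that TLR9 induces in normal B cells.

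E proteins are basic HLH transcription factors that bind as dimers to short DNA sequences called E-boxes, and they are needed for B-lineage commitment and for immunoglobulin gene rearrangement and switching. Id proteins carry the HLH dimerization surface but no DNA-binding region, so an E protein paired with an Id protein cannot bind its site. Bhlhe40, Bhlhe41 and Hes1 are repressors: the Bhlhe pair binds E-boxes, acts in the circadian clock and is known in innate-like and memory lymphocytes, and Hes1 is a classic target of Notch signaling.

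Expression is given as deposited, in log2 CPM, which are read counts scaled to a common library size. A transcript was called raised or lowered when the false discovery rate (FDR) of limma's moderated test, Benjamini-Hochberg adjusted over the 11233 genes, was under 0.05. After 4 hours with CpG, 3 of the 9 genes were raised (Id1, Id2 and Bhlhe40), beside 37.6% of all tested genes, and 5 were lowered (Tcf3, Tcf4, Tcf12, Id3 and Bhlhe41), beside 36.7% of all tested genes. Hes1 did not pass the test. With the added requirement of a log2 fold change beyond 1, Id1 and Id2 were raised (2 of 9, background 15.8%) and Tcf4, Id3 and Bhlhe41 were lowered (3 of 9, background 15.3%). The samples of the 2 groups did not overlap for 8 of the 9 genes, as was the case for 77.7% of all tested genes. With 9 genes these counts are not far from the background, and nothing is read from the counts alone. The 3 E proteins were all lowered, whereas the Id proteins and the Bhlhe factors each split into raised and lowered members.

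**Figure D1:**
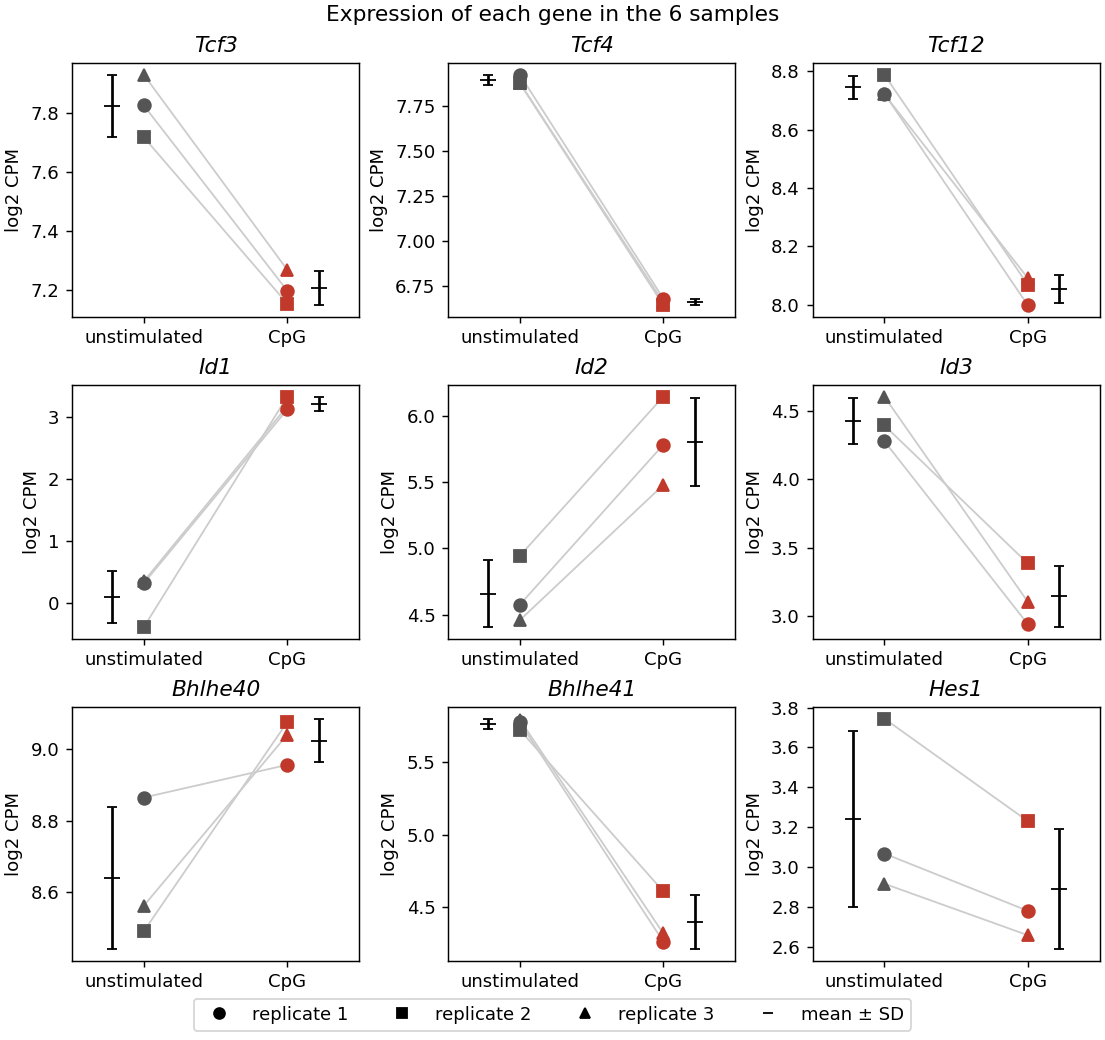
Expression (log2 CPM, vertical axis) of the 9 genes in each of the 3 unstimulated and 3 CpG-stimulated samples; each point is 1 sample, its shape gives the replicate number, gray lines join equal numbers, and bars beside the points give the mean ± SD (n = 3). The axes differ between genes and do not start at 0. The points of the groups are separate for every gene except Hes1, and Id1 spans the widest difference, from a mean of 0.094 to 3.21.

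The sequences upstream of the start sites are shown because E proteins and Bhlhe factors bind E-boxes and are themselves among the genes that moved. RefSeq entries (build GRCm38.p6) matched 5 of the 9 genes: Tcf3, Tcf12, Id2, Id3 and Bhlhe41. The stretches below lie within the 250 bases upstream of a RefSeq start and outside annotated exons, all on the minus strand, with capitals marking CANNTG, the general E-box, which was searched on both strands. The Id2 stretch lies inside the annotated span of the gene.
Tcf3 (chr10:80433648-80433885): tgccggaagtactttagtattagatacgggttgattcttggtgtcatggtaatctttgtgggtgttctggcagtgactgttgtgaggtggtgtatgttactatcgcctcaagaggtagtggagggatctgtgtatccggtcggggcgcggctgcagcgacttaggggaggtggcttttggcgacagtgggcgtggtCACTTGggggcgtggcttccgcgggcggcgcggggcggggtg
Tcf12 (chr9:72111872-72112069): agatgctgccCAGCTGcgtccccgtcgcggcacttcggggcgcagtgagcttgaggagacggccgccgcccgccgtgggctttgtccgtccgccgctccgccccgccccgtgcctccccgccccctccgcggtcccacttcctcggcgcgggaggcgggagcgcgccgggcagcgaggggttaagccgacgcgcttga
Bhlhe41 (chr6:145865559-145865670): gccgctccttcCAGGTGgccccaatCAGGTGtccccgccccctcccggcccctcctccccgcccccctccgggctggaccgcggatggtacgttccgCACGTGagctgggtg
Id2 (chr12:25096254-25096342): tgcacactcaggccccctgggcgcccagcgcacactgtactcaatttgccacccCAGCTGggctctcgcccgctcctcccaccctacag

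Bhlhe41, which was lowered, had 3 E-boxes in this window. The form CAGGTG, which E proteins bind, stood at 239 and again at 225 bases upstream of the start. The form bound by Bhlhe and clock factors, CACGTG, stood at 153 bases upstream. Of 32851 RefSeq windows of the same 250 bases, 66.2% held at least 1 CANNTG, 17.2% held CAGGTG and 6.02% held CACGTG. The share of windows with more than 1 match was not counted, so the number of E-boxes of Bhlhe41 has no background here. The form CAGCTG, present in 13.0% of windows, was found at 240 bases upstream of the first Tcf12 start and at 196 bases upstream of Id2, whereas Tcf3 had CACTTG at 54 bases. The 250 bases upstream of the RefSeq start of Id3 lie wholly within annotated exons and inside the annotated span of the gene. They held no CANNTG and held TATAA, found in 22.8% of windows, at 29 bases. A further Tcf12 start, which lies inside the annotated span of the gene, had CAAGTG at 149 bases upstream. It also had a match to the NF-kB motif, found in 7.25% of windows, at 79 bases upstream. CACNAG, the N-box letters bound by Hes proteins, was found in none of these windows and in 36.7% of all windows. Matches describe the letters only, and no binding was measured.

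All 3 E protein transcripts were lowered, to between 42.4% and 65.1% of their unstimulated levels. Tcf4, which encodes E2-2, the E protein that also specifies plasmacytoid dendritic cells, fell the most. Its values were 7.93, 7.88 and 7.88 log2 CPM in unstimulated replicates 1 to 3 and 6.68, 6.64 and 6.66 in the CpG-stimulated replicates. Each stimulated sample lay below each unstimulated sample, with an SD of 0.027 in the unstimulated and 0.018 in the stimulated group (n = 3 each). The log2 fold change was -1.24 ± 0.055 (SE), with a 95% confidence interval of -1.36 to -1.11 (limma FDR 4.82e-08), so that 42.4% of the unstimulated level remained.

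Tcf12, which encodes HEB, measured 8.72, 8.79 and 8.72 log2 CPM without stimulation and 7.998, 8.07 and 8.09 with CpG, again with no overlap. Its log2 fold change was -0.69 ± 0.057 (limma FDR 2.1e-06), which left 61.9%. Tcf3, which encodes the E12 and E47 proteins of the E2A gene and is central to B cell development, measured 7.83, 7.72 and 7.93 without stimulation and 7.20, 7.15 and 7.27 with CpG. All stimulated values were below all unstimulated values, and the log2 fold change was -0.62 ± 0.069 (limma FDR 1.86e-05), leaving 65.1%. Tcf12 lies at chr9:71842688-72111871 and Tcf3 at chr10:80409514-80433647, both on the minus strand (GRCm38). In bulk RNA of this kind, fewer cells of a type and less RNA per cell cannot be told apart.

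The gap between Tcf4 and the other E proteins was tested on the differences between genes within each sample. The log2 fold change of Tcf4 minus that of Tcf3 was -0.62, and minus that of Tcf12 it was -0.54, and for both pairs the within-sample differences of the 2 groups did not overlap (exact permutation test, two-sided, p = 0.1 each). With 3 samples against 3, 0.1 is the smallest p this test can give, and over the 7 pairs of genes compared the Benjamini-Hochberg value was 0.117. For Tcf12 minus Tcf3 the difference was -0.07 (exact permutation p = 0.7), less than the spread between samples.

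The symbols Tcf3 and Tcf4 are also old names of the HMG-box factors of Wnt signaling, now Tcf7l1 and Tcf7l2. Both of those genes had rows of their own in the files. Tcf7l1 was at -5.52 to -2.73 log2 CPM and was not tested, and Tcf7l2 was at 2.58 to 2.75 without stimulation and 4.24 to 4.36 with CpG (log2 fold change 1.64, limma FDR 3.31e-07). Tcf7l2 therefore moved in the opposite direction to the Tcf4 row. These genes were looked at after their values were seen.

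The Id genes went in different directions: Id1 and Id2 were raised and Id3 was lowered. Id1 (chr2:152736251-152737410, plus strand), the gene with the lowest level of the 9 before stimulation, increased most. Its values were 0.32, -0.39 and 0.35 log2 CPM in unstimulated replicates 1 to 3. These are worth roughly 13.1 to 22.2 reads in a library of the 17800000 reads that the scale implies. With CpG the values were 3.12, 3.33 and 3.17, worth roughly 154 to 178 reads. The lowest stimulated sample was far above the highest unstimulated one. The log2 fold change was 3.11 ± 0.225 (95% confidence interval 2.61 to 3.62, limma FDR 8.05e-07), an 8.65-fold increase, which ranked 94 among the 11233 tested genes, within the top 0.837%. Because Id1 was low without stimulation, the change was 2.30 when 1 CPM was added to all values before taking logs.

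Id2 (chr12:25093799-25097140, minus strand), known for its role in innate lymphoid, NK and dendritic cell development, measured 4.58, 4.94 and 4.46 log2 CPM without stimulation and 5.78, 6.14 and 5.48 with CpG. The groups did not overlap, although the stimulated samples spread by 0.333 (SD, n = 3). Id2 rose by 1.14 ± 0.168 on the log2 scale (95% confidence interval 0.77 to 1.52, limma FDR 0.000138), a 2.21-fold increase. Without CpG-stimulated replicate 2, the log2 fold change was 0.97, and Id2 no longer passed the limit of 1, although it stayed past the FDR threshold.

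Replicate 2 stood apart in both groups by its erythroid transcripts (Alas2, Beta-s, Slc4a1 and Hba-a1, summed): 3833 CPM without stimulation and 4902 with CpG, against 382 to 609.6 in the other samples. Id2 and Hes1 were the 2 of 9 genes that were highest in replicate 2 of both groups, as were 14.5% of all tested genes. The part of erythroid RNA in their levels was not tested. Within replicates 1, 2 and 3, Id2 was higher with CpG by 1.21, 1.20 and 1.02 on the log2 scale.

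Id3 (chr4:136143497-136145755, plus strand), the Id gene linked to marginal zone and follicular B cell differentiation, decreased. It measured 4.28, 4.398 and 4.61 log2 CPM without stimulation and 2.94, 3.38 and 3.10 with CpG, again with no overlap. The log2 fold change was -1.29 ± 0.137 (95% confidence interval -1.59 to -0.98, limma FDR 1.25e-05), leaving 40.9% of the unstimulated level. The 3 Id genes therefore differed from each other by more than their within-group spread: the log2 fold change of Id1 was above that of Id2 by 1.97, and that of Id2 was above that of Id3 by 2.43. In both pairs the within-sample differences did not overlap between groups (exact permutation p = 0.1, the smallest possible). Id4, the remaining gene of the family, was between -5.42 and -3.53 log2 CPM in the 6 samples, below the value of 3 reads (-2.35), and was not tested.

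**Figure D2:**
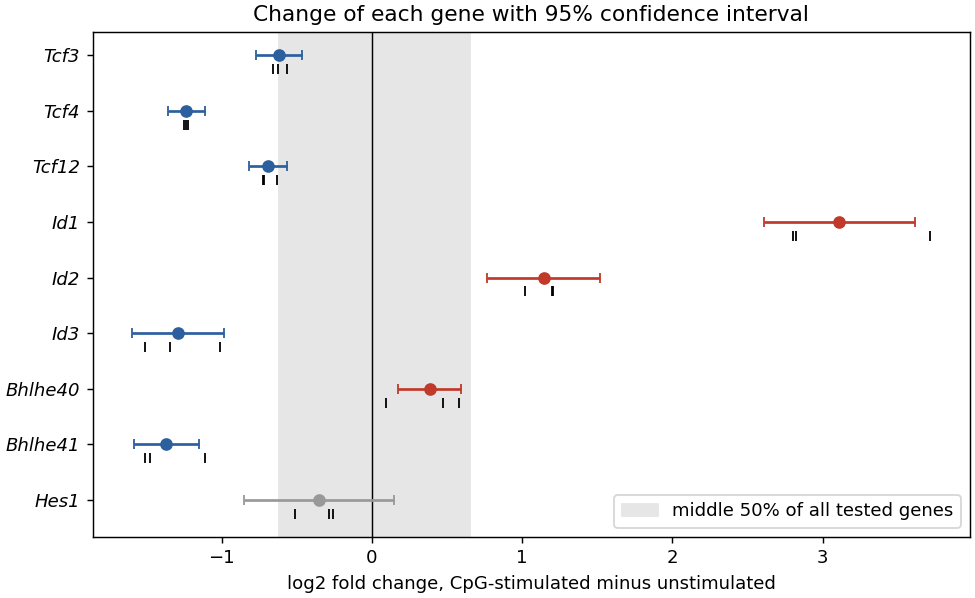
Log2 fold change (CpG minus unstimulated, horizontal axis) of each of the 9 genes with its 95% confidence interval; ticks are the differences within replicates 1, 2 and 3, and the gray band holds the middle 50% of all tested genes (-0.62 to 0.65). Id1 lies farthest right at 3.11, Bhlhe41 farthest left at -1.37, and only the interval of Hes1 crosses 0.

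To compare levels between genes, CPM was divided by the kilobases of merged exons in the annotation (GENCODE M21). On this CPM per kb scale, the unstimulated order was Bhlhe40 (85.3), Tcf3 (56.2), Tcf12 (27.6), Id3 (12.1), Id2 (10.5), Tcf4 (8.70), Bhlhe41 (8.08), Hes1 (4.80) and Id1 (0.945). Id3 and Id2, neighbors in this order, overlapped between samples. After CpG the order was Bhlhe40 (110.6), Tcf3 (36.6), Id2 (23.3), Tcf12 (17.1), Id1 (7.97), Id3 (4.96), Hes1 (3.70), Tcf4 (3.69) and Bhlhe41 (3.15). Here Hes1 overlapped with Id3, Tcf4 and Bhlhe41. Tcf4 has 27.4 kb of merged exons over many isoforms, which lowers its value per kb, so its place in the order depends on this length.

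Summed over the 3 E proteins, the level was 92.3, 89.2 and 96.2 CPM per kb in the unstimulated samples and 56.5, 56.2 and 59.4 in the stimulated ones. The sum over Id1, Id2 and Id3 was 21.7, 25.05 and 23.7 CPM per kb without stimulation and 34.3, 43.5 and 30.8 with CpG. In group means, Id1 went from 0.945 to 7.97 and Id3 from 12.1 to 4.96, a gain and a loss of about the same size. The rise of the Id sum was therefore about that of Id2 alone, which went from 10.5 to 23.3. The Id sum divided by the E protein sum was 0.235, 0.281 and 0.247 without stimulation and 0.607, 0.774 and 0.519 with CpG, and neither the sums nor the ratio overlapped between groups. Inverted, the E protein sum over the Id sum went from 3.95 ± 0.355 to 1.62 ± 0.318 (SD, n = 3). These are RNA ratios and hold for the merged-exon lengths used, and protein was not measured.

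The make-up of the Id pool turned over. Id3 made up 51.5% ± 5.35 (SD, n = 3) of the Id sum per kb in unstimulated cells and 13.8% ± 1.57 after CpG. Id2 went from 44.5% ± 6.22 to 63.9% ± 4.04, and Id1 from 4.07% ± 1.26 to 22.3% ± 2.69. By comparison, the E protein pool kept its order on this scale. Tcf3 was 60.7% without and 63.7% with CpG, Tcf12 was 29.9% and 29.8%, and Tcf4 was 9.41% and 6.44%. This order depends on the merged-exon lengths. In log2 CPM, not divided by length, mean Tcf12 was highest in both groups (8.745 without stimulation and 8.05 with CpG). Mean Tcf4 and Tcf3 were 7.90 and 7.82 without stimulation, with overlapping samples, and 6.66 and 7.21 with CpG.

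**Figure D3:**
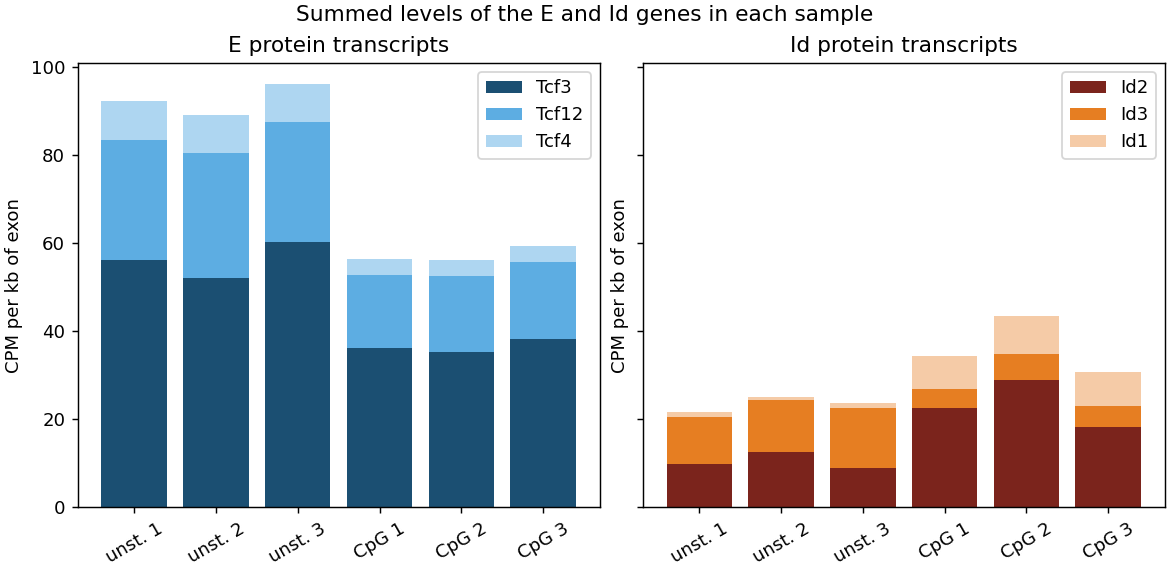
Summed expression per sample in CPM per kb of merged exon (vertical axis, from 0), stacked by gene for the E proteins and for the Id proteins in the 3 unstimulated and 3 CpG-stimulated samples. E protein sums fell from between 89.2 and 96.2 to between 56.2 and 59.4. Id sums rose from between 21.7 and 25.05 to between 30.8 and 43.5. In group means Id1 gained about as much as Id3 lost, so the rise of the Id sum was about that of Id2.

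The paired repressors Bhlhe40 (Dec1) and Bhlhe41 (Dec2) went in opposite directions. Both lie on chromosome 6, Bhlhe40 at chr6:108660629-108666925 and Bhlhe41 at chr6:145858243-145865558. Bhlhe41 fell most of the 9 genes. It measured 5.78, 5.72 and 5.79 log2 CPM without stimulation and 4.26, 4.61 and 4.32 with CpG, with no overlap. This was a log2 fold change of -1.37 ± 0.098 (95% confidence interval -1.59 to -1.15, limma FDR 7.39e-07), leaving 38.7%. An unnamed transcript model on the opposite strand (Gm43909) shares 1280 bases, or 19.0%, of the Bhlhe41 exons, and whether the counting used strand is not given in the sources used here.

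Bhlhe40 was the most abundant of the 9 genes per kb in both groups, and its change was small. It measured 8.86, 8.49 and 8.56 log2 CPM without stimulation and 8.96, 9.07 and 9.04 with CpG. The groups did not overlap, but the nearest samples, both of replicate 1, were 0.09 apart. Bhlhe40 rose by a log2 fold change of 0.38 ± 0.093 (95% confidence interval 0.17 to 0.59, limma FDR 0.00378), a 1.30-fold increase. The call was lost when all listed genes were fitted without a filter on low values (limma FDR 0.0655). The antisense gene 0610040F04Rik shares 118 bases, or 2.51%, of the Bhlhe40 exons and was at -4.98 to -2.84 log2 CPM. The ratio of Bhlhe40 to Bhlhe41 per kb was 12.2, 9.74 and 9.74 without stimulation and 36.97, 31.6 and 37.7 with CpG. Their log2 fold changes differed by 1.75 (exact permutation p = 0.1, the smallest possible, no overlap).

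Hes1 (chr16:30064384-30067796, plus strand) was low and did not pass the test. It measured 3.07, 3.75 and 2.92 log2 CPM without stimulation and 2.78, 3.23 and 2.66 with CpG, and the groups overlapped. The log2 fold change was -0.35 ± 0.224 (95% confidence interval -0.85 to 0.15, limma FDR 0.178). Most of the spread lay between replicate numbers, with replicate 2 highest in both groups. Within replicates 1, 2 and 3 the CpG-stimulated minus unstimulated differences of Hes1 were -0.29, -0.51 and -0.26, and with the replicate number as a block it passed (limma FDR 0.0212).

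Genes of the surrounding pathways were then described from 6 lists. Beside each list stands its median log2 fold change, to be read against 0.003 for all tested genes, of which the middle 50% lay between -0.62 and 0.65. The counts of a list are to be read against the 37.6% raised and 36.7% lowered among all tested genes. Other HLH genes were mostly silent: 7 of 27 could be tested, of which 2 were raised, 3 were lowered and 2 did not pass (median -0.40). Heyl, a Notch-responsive repressor, was at -1.99, -2.13 and -3.46 log2 CPM without stimulation, around the value of 3 reads, and at -0.38, 0.57 and 0.74 with CpG. It passed the filter on low values only through the CpG-stimulated samples, so its place among the 2 raised genes follows in part from the filter. With no filter its limma FDR was 0.0213, and it could not be tested under the filter on all 6 samples or without any 1 of the CpG-stimulated samples. Scx, encoding scleraxis, a tendon factor, was raised by 1.46 (limma FDR 0.000164) to a level still low at 1.66 log2 CPM, a rise of 0.96 on the log2(CPM + 1) scale. Hes6, an inhibitor of Hes1, fell by 1.496 on the log2 scale (limma FDR 5.23e-06), from 3.56 to 2.06 log2 CPM.

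Among 17 genes known as direct targets of E proteins in B-lineage cells, 13 were tested, 9 were lowered, 2 were raised and 2 did not pass (69.2% lowered and 15.4% raised, median -1.14). Rag1, a subunit of the V(D)J recombinase, was at 2.10, 2.49 and 2.76 log2 CPM without stimulation and -1.41, -0.75 and -0.97 with CpG (log2 fold change -3.49, limma FDR 1.49e-06), a change of -2.12 on the log2(CPM + 1) scale. Its unstimulated samples alone were enough for it to pass the filter on low values. Rag1 could not be tested under the filter on all 6 samples, where 8 genes of this list were lowered. Cxcr4, the receptor for the stromal chemokine CXCL12, fell by 2.21 on the log2 scale (limma FDR 4.75e-07) from 11.6 to 9.36 log2 CPM. Cdkn1a, which encodes the cell cycle inhibitor p21, was raised by 1.91 (limma FDR 3.45e-05). Cd79a, Cd79b and Pax5 stand both in this list and among the B cell markers, and E protein binding was not measured here.

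Of 14 corepressors and coactivators that bind E or Hes proteins, 12 were tested, 8 were lowered, 3 were raised and 1 did not pass (66.7% lowered and 25% raised, median -0.74). The acetyltransferases had the largest changes: Kat2b fell by 2.15 (limma FDR 1.15e-06), Ep300 fell by 1.17 (limma FDR 3.42e-07) and Crebbp fell by 1.12 (limma FDR 3.77e-07). Fitted without the filter on low values, 1 gene of this list was raised in place of 3.

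BMP and TGF-β signaling, the classic input to Id genes, had 13 of 19 genes tested, with 8 lowered, 3 raised and 2 that did not pass (61.5% lowered and 23.1% raised, median -0.55). Smad3, a transducer of TGF-β, fell by 1.05 (limma FDR 0.000182), the ligand gene Tgfb1 fell from 9.16 to 8.13 log2 CPM (limma FDR 3.21e-05), and Ski, a repressor of SMADs, fell by 0.92 (limma FDR 7.13e-07). The raised genes were Smad2, Smad5 and Skil, by 0.30, 0.25 and 0.36. Notch signaling, the classic input to Hes1, had 16 of 18 genes tested, with 11 lowered, 1 raised and 4 that did not pass (68.8% lowered and 6.25% raised, median -0.38). Nrarp, a feedback inhibitor of Notch, fell by 1.76 (limma FDR 0.000741), the ligand gene Jag2 fell by 1.74 (limma FDR 0.000843) and Dtx1, the Deltex gene, fell by 1.35 (limma FDR 1.01e-07). Nrarp and Jag2 were low, and on the log2(CPM + 1) scale their changes were -0.94 and -0.90, smaller than the -1.34 of Dtx1. For Nrarp and Jag2 the unstimulated samples alone were enough to pass the filter on low values. Neither gene could be tested under the filter on all 6 samples, where 9 genes of this list were lowered. The raised gene was the coactivator Maml2, by 1.13 (limma FDR 2.45e-05).

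The clock genes, known targets or partners of Bhlhe40 and Bhlhe41, split evenly. Of 15 genes 13 were tested, 5 were raised, 5 were lowered and 3 did not pass (38.5% lowered and 38.5% raised, median -0.26). Per1 was lowered from 9.45 ± 0.139 to 7.00 ± 0.259 log2 CPM (SD, n = 3; log2 fold change -2.44, limma FDR 7.88e-08), whereas Per3 was raised by 1.07 (limma FDR 0.00065) and Per2 by 0.87 (limma FDR 8.1e-05). Nfil3, a clock output factor, was raised by 1.19 (limma FDR 0.000201). Per2 was named to complete the Period family after its value was seen.

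**Figure D4:**
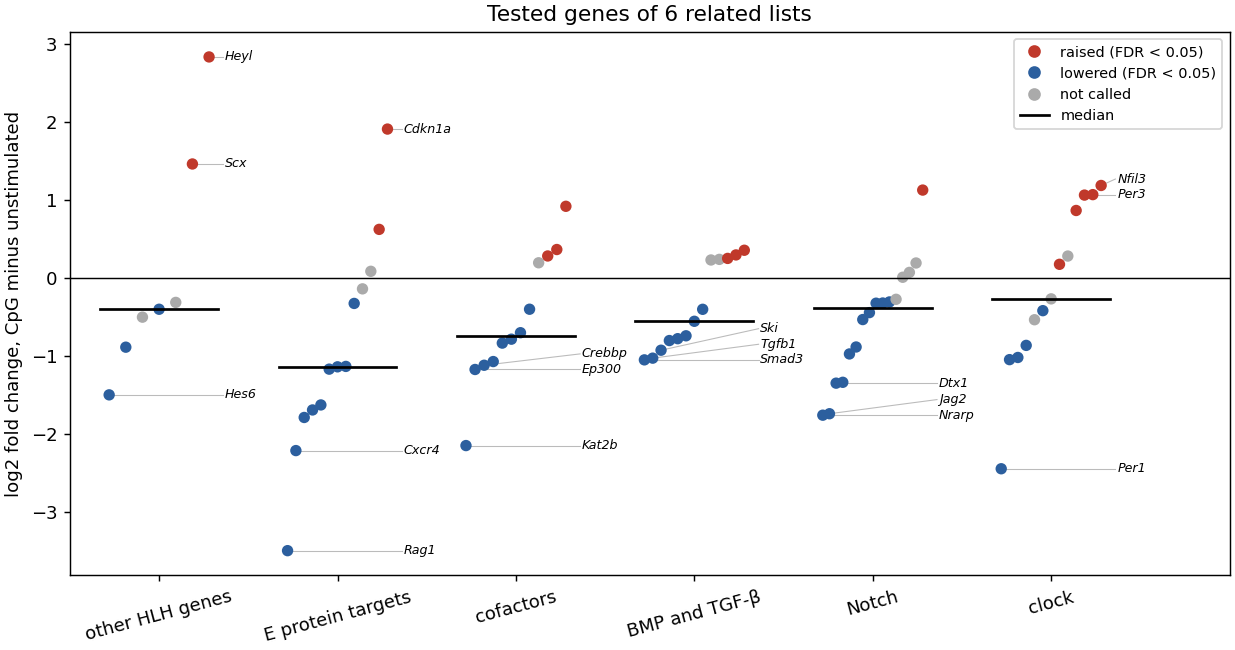
Log2 fold change (CpG minus unstimulated, vertical axis) of every tested gene in the 6 lists; red points were raised, blue points lowered and gray points not called at FDR 0.05, black bars are list medians, and the named genes are labeled. All 6 medians are below 0, from -1.14 for the E protein targets to -0.26 for the clock genes.

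Among the 5090 tested genes whose mean level reached 5 log2 CPM, the patterns most like that of Id1 over the 6 samples were those of Ms4a6c (Pearson r = 0.999), Vps25 (r = 0.998) and Blnk (r = 0.998). For Bhlhe41 they were Plekho1, Myo1c and Ccni (r = 0.999 each). These correlations describe 2 groups of 3 samples, and 97 genes for Id1 and 475 genes for Bhlhe41 exceeded an r of 0.99.

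The B cell label was checked against marker transcripts. All 5 B cell markers (Ms4a1, Cd79a, Cd79b, Pax5 and Cd22) were expressed, with summed levels of 2867 to 3449 CPM without stimulation and 1562 to 1897 with CpG. They did not move together. Ms4a1 was raised by 0.77 on the log2 scale (limma FDR 2.19e-05). The other 4 were lowered, with log2 fold changes from -0.32 (Pax5) to -2.40 (Cd22). T cell markers other than Lck, which B cells can also express, summed to at most 0.626 CPM in any sample, with Cd3e, Cd4, Cd8a and Thy1 at or under the value of 3 reads throughout. NK cell markers, beside Id2, summed to 3.05 to 3.45 CPM without stimulation and 1.57 to 2.63 with CpG, while Id2 alone was at 21.98 to 30.8 and 44.6 to 70.7 CPM. Without stimulation most of that sum was Prf1, which fell from a mean of 1.62 to 0.055 log2 CPM with CpG. Klrb1c, which did not pass the filter on low values, was at -4.90 to -4.27 log2 CPM without stimulation and -0.84 to 0.23 with CpG. Its groups did not overlap, and its direction was that of Id2. The other NK cell markers, Ncr1, Klrk1 and Gzma, were at or under the value of 3 reads throughout. The part of NK cells in the Id2 level was not tested. In the same way, plasmacytoid dendritic cell markers, beside Tcf4, summed to 1.54 to 2.45 and 0.933 to 1.31 CPM, beside 235 to 243 and 99.9 to 102 CPM of Tcf4. Myeloid markers summed to 7.52 to 14.9 and 10.1 to 15.8 CPM, but single markers went in different directions. Adgre1 was raised by 0.83 on the log2 scale (limma FDR 0.00811), with overlapping groups. Csf1r and Cd14 had log2 fold changes of -1.61 (limma FDR 0.018) and -1.73 (limma FDR 0.0043). Both were under the value of 10 reads in every CpG-stimulated sample and passed the filter only through the unstimulated samples. Plasma cell markers summed to 828 to 1182 CPM without stimulation and 468 to 602 with CpG, and their part in the results was not tested. Library totals cannot be read from these files, because the values were normalized to a common distribution.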

How the data were processed

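RNA-seq values of 6 samples were analysed. Per the labels and the study's methods, reads were trimmed (Trim Galore 0.6.5), aligned to mm10 with STAR 2.6.1a and counted with featureCounts (Subread 2.0.1). The authors then quantile normalized the counts and deposited log2 CPM values from voom, so no counts are at hand. The strand setting is not given in the sources used here. A value of no reads is -5.15, which implies libraries of 17800000 reads after normalization. However, 4421 genes have a value below it. Where same-numbered samples of the 2 groups both lay below it, 2666 of 2667 value pairs were equal within 0.0015, against 287 of 1445 between different numbers. The values thus appear to carry an offset for each gene and replicate number, from a step not given in the sources used here. An offset that both samples of a number share cancels in the group difference of log2 values. It enters the spread within groups, and so the SEs, FDRs and the correlations between replicates. Read numbers, levels per kb with their sums, shares and ratios, and changes on the log2(CPM + 1) scale can also carry it. Quantile normalization gives all samples nearly 1 distribution, so a change in total RNA per cell cannot be seen.

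Genes above the value of 10 reads (-0.76) in at least 3 samples were tested with limma 3.58.1 in R 4.3.3 (lmFit, eBayes with a trend on mean expression), CpG against unstimulated, two-sided, with Benjamini-Hochberg adjustment. The script was tested on simulated data. Differences between genes used exact permutation tests.

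The members and lists were chosen with earlier results of these data known. Some genes of the lists are not reported here and do not enter counts or sums. Named were all members, the 3 genes of each list with the largest change among those past an FDR of 0.05, the 3 genes most like Id1 and Bhlhe41, and the markers. Other genes are said to be named after their values were seen or illustrate a count. Same-numbered samples deviated together from their group means (correlations 0.435, 0.224 and 0.300, against -0.281 to 0.0279 for other numbers), measured on values that carry this offset, so limma was also run with replicate number as a blocking term. The labels give 3 mice and do not state that a number marks 1 mouse. The p-values measure only the spread between these samples. Other alternatives were no filter, a filter in all 6 samples, median centring, no trend, log2(CPM + 1), and leaving out each sample. Gene positions are GRCm38 (GENCODE M21). Promoters are RefSeq's.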

Additional observations from a re-analysis of the deposited data

How the results depend on the processing

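Of 108 values of the 9 genes under the alternatives, 106 kept their direction and their side of the FDR threshold and 0 reversed. The exceptions were Bhlhe40 with no filter on low values (limma FDR 0.0655) and Hes1 with the replicate block, where it passed (limma FDR 0.0212). Over all alternatives the FDR of Bhlhe40 ran from 0.000246 to 0.0655 and that of Hes1 from 0.0212 to 0.645. All 209 values of the 18 other genes named by the rule kept direction and side. Settings in which a gene could not be tested are not among these values. Heyl had 8 alternatives, and Rag1, Nrarp and Jag2 had 11 each, against 12 for each of the others. Without CpG-stimulated replicate 2, 1 of the 9 genes was raised by over 1 log2, since Id2 dropped to 0.97; over all left-out samples this number was 1 to 2. Raised genes among the other HLH genes numbered 1 when the filter required all 6 samples and 1 to 2 without single samples, being 1 without CpG-stimulated replicate 1, 2 or 3. Raised cofactors numbered 1 with no filter. Raised Notch genes numbered 2 with the replicate block and 1 to 2 without single samples, being 2 without CpG-stimulated replicate 2. The block changed no other call of the 9 genes. The causes were not tested. With no counts deposited, no count-based test could be run, and Id1, Heyl, Scx, Rag1, Nrarp and Jag2 are limited by low levels in 1 or both groups: on the log2(CPM + 1) scale their changes were 2.30, 0.94, 0.96, -2.12, -0.94 and -0.90.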
